A study of Homo sapiens with 66 samples.

Results

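The comparison described here is between THP-1 cells targeted at once in ADAR and HNRNPC (ADAR+hnRNPC) and cells given non-target control gRNA alone (CTRL), on day 4 after nucleofection. THP-1 is a human monocytic leukemia line. All cells were a Cas9-transgenic, STING-deficient clone kept in medium, so the control libraries carry the STING deficiency and the Cas9 transgene too. The members were the 3 ADAR+hnRNPC and the 3 CTRL whole-cell libraries that the sample labels name for this day, 6 of the 66 libraries of the series. ADAR+hnRNPC cells received 1 gRNA against each gene, and CTRL cells received the non-target gRNA NC1 in both positions. The 3 libraries of cells with the hnRNPC gRNA and NC1 (hnRNPC alone) and the 3 with the ADAR gRNA and NC1 (ADAR alone) of the same day are used where the double targeting is set against a single one. Cells were harvested as nucleofected populations of 1 clone, with 1 gRNA per gene, and the study describes its libraries as independent experiments.

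Gene counts of the 6 libraries ranged from 108028880 to 152073473. Intron counts came to 18.5 to 27.0% of the gene counts, and within each of the 4 gRNA groups replicate 1 had the highest such share. Mitochondrially encoded genes held 0.19 to 0.295% of the counts. The cells had the RNA of a monocytic line: the summed level of 12 monocytic marker genes (such as SPI1, MPO, AZU1, and LYZ) was 4046 to 4298 counts per 1000000 gene counts (CPM) in CTRL and 3171 to 3578 CPM in ADAR+hnRNPC libraries, although CD14 and CD68 lay below the expression filter. It was 3329 to 3681 CPM with hnRNPC alone and 4224 to 4952 CPM with ADAR alone, and its part in the results was not tested. The summed level of 16 markers of lymphoid, epithelial, mesenchymal, erythroid, and other cells was 8.33 to 10.6 and 10.5 to 11.9 CPM, and 6 to 8 of these markers were at 0 in each of the 6 libraries.

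ADAR encodes ADAR1, an enzyme that converts adenosine to inosine in double-stranded RNA (A-to-I editing). Much of this double-stranded RNA is formed by inverted pairs of Alu elements, and its editing makes it a poorer ligand of the cytosolic RNA sensor MDA5, which is encoded by IFIH1. When MDA5 or its relative RIG-I binds RNA, both act through the adaptor MAVS, and transcription factors of the IRF and NF-κB families then switch on IFN-β, antiviral genes, and inflammatory genes. Secreted IFN acts on its receptor, and the transcription factor complex ISGF3, which includes STAT2 and IRF9, induces IFN-stimulated genes (ISGs). hnRNPC is a nuclear protein that binds runs of uridine in pre-mRNA, which antisense Alu elements carry, and keeps the splicing factor U2AF2 from using such runs as cryptic splice sites.

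The protospacers of the gRNAs show which parts of the genes were cut. Each is given 5′ to 3′ with the PAM in capitals, as matched to the GRCh37 genome.
ADAR gRNA: tatatctcgggccttggtaAGG
hnRNPC gRNA: gagattcccaatgaatacacGGG
The ADAR site (chr1:154574128-154574149, plus strand) lies in coding exon sequence, in exon 2 of ENST00000368474, and in the coding sequence of 18 of the 20 annotated coding transcripts of ADAR. The hnRNPC site (chr14:21702284-21702306, plus strand) lies in exon 3 of the HNRNPC transcript ENST00000553300 and in the coding sequence of 24 of 26. The hnRNPC protospacer matched a second site followed by NGG without mismatch (chr2:190788108-190788130, minus strand). Only transcripts of ADAR and HNRNPC were searched, so whether another gene is cut there was not tested. The protospacer of the non-target gRNA matched 0 sites followed by NGG.

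HNRNPC mRNA (ENSG00000092199.13, chr14:21677295-21737653) was lower in each doubly targeted library. Its level was 725, 796, and 817 CPM in the 3 CTRL libraries and 294, 317, and 333 CPM in the 3 ADAR+hnRNPC libraries. The groups did not overlap, and the mRNA fell by 1.31 on the log2 scale (SE 0.06, adjusted p = 5.2e-20). ADAR mRNA (ENSG00000160710.11, chr1:154554171-154600489) was 398, 416, and 397 CPM in CTRL and 420, 461, and 485 CPM in ADAR+hnRNPC libraries, a log2 difference of 0.17 (SE 0.08, adjusted p = 0.063) that was not called. It was 0.29 with library totals (adjusted p = 0.00016), and the adjusted p was 0.025 with the replicate block and 0.014 with DESeq2, where the value was 0.17 and 0.21. A frameshift need not lower an mRNA, and ADAR is itself an ISG, so the mRNA does not report the loss of the protein. In these bulk libraries fewer cells with HNRNPC mRNA and less of it in each cell cannot be told apart.

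Editing was therefore read from the deposited counts at A-to-I editing sites. Over 147905 sites with at least 10 reads in each of the 6 libraries, edited reads made up 4.38, 4.68, and 4.68% of all reads in CTRL and 2.03, 2.17, and 2.18% in ADAR+hnRNPC libraries. The means were 4.58 ± 0.175% and 2.13 ± 0.0834% (SD, n = 3), a ratio of 0.465. The libraries did not overlap. The difference of -2.45 percentage points had p = 0.1 in an exact two-sided permutation test, the smallest p that 3 against 3 libraries can give. With ADAR alone 1.86 ± 0.117% of these reads were edited, and with hnRNPC alone 4.87 ± 0.328% (SD, n = 3). The authors kept only sites that were edited in at least 1 library without ADAR targeting, and the part of this choice in the difference was not tested.

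A gene is called higher or lower here where its log2 fold change was 1 or more in size and its adjusted p did not exceed 0.05 (edgeR quasi-likelihood test, Benjamini-Hochberg over the 13187 genes tested). In ADAR+hnRNPC against CTRL cells 448 genes (3.4% of those tested) were higher and 170 (1.29%) were lower, and the median log2 fold change of all genes was -0.03. With library totals in place of TMM factors the counts were 603 and 98 (86.0% of the calls higher, against 72.5%), and the median of all genes moved to 0.09. Of the genes that rose, 87 did so more than 4-fold. The 12 largest rises were in the chemokine genes CXCL11 and CXCL10, the antiviral genes IFIT1, IFIT2, OASL, IFI44L, IFI44, MX1, IFI27, and TRIM22, the adhesion receptor gene ICAM1, and ADAM28, a membrane metalloproteinase gene.

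CXCL11 and CXCL10 encode ligands of CXCR3, which draw T cells and NK cells to inflamed tissue. No CXCL11 read was counted in the CTRL libraries, and the ADAR+hnRNPC libraries had 1.65, 1.86, and 2.81 CPM. Against a floor of 3 counts in each CTRL library this is at least 93.0-fold higher. CXCL10 had 0, 0.0405, and 0.00668 CPM in CTRL and 7.04, 6.46, and 12 CPM in ADAR+hnRNPC cells (log2 fold change 8.87, SE 0.55, adjusted p = 3.1e-16). The chemokine list had 4 of 13 matched genes above the filter, and all 4 were called higher. This filter averages all 48 libraries of study 1. CXCL11, CXCL10, and CCL2, with means of 0, 0.0157, and 0.0956 CPM in CTRL, passed it only through groups with higher levels. That all 4 rose is therefore in part set by the filter. The median log2 fold change of the 4 genes was 6.28 with the fitted CXCL11 value, which is no bound, and 5.12 with CXCL11 at its bound. CCL2, which draws monocytes, rose from 0.0956 ± 0.011 to 1.25 ± 0.301 CPM and CXCL8, which draws neutrophils, from 1.7 ± 0.289 to 3.56 ± 0.277 CPM (SD, n = 3). CXCL8 lay near the threshold, with a log2 fold change of 1.06 that was 0.93 without CTRL replicate 1 and 0.99 without ADAR+hnRNPC replicate 2.

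The IFN ligands lay below the filter, at levels given here without a test. IFNB1, which encodes IFN-β, had 1, 7, and 0 counts in the CTRL libraries and 89, 91, and 157 counts in the ADAR+hnRNPC libraries, which is 0.718, 0.762, and 1.24 CPM. It had 0, 7, and 3 counts with hnRNPC alone and 5, 8, and 10 counts with ADAR alone. The doubly targeted libraries were thus the 3 with the most IFNB1 counts of the 12. Of the 21 ligand genes in the table, 8 had a count in an ADAR+hnRNPC library, and the highest level of any ligand other than IFNB1 was 0.119 CPM.

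All 4 tested genes of the IFIT family rose. These encode proteins that bind viral RNA lacking the cap marks of host mRNA. IFIT1 went from 0.469, 0.513, and 0.942 CPM to 16.9, 20.3, and 41.5 CPM, and IFIT2 from 1.15, 1.12, and 1.38 CPM to 34.0, 39.1, and 68.2 CPM. The changes were 40.1-fold for IFIT1 and 38.6-fold for IFIT2, and IFIT3 and IFIT5 rose 11.6-fold and 5.45-fold. Replicate 3 was the highest of the ADAR+hnRNPC libraries for each of the 4, and the groups did not overlap for any of them, nor for 60.1% of all genes tested. IFIT1 and IFIT2, with means of 0.641 and 1.22 CPM in CTRL, passed the filter only through groups with higher levels. So did, among others, OASL, NLRP1, IFI44L, IFI44, IFI27, ICAM1, GBP1, and GBP2, with CTRL means of 0.0712 (GBP1) to 0.725 CPM (ICAM1). The counts of rises in their lists are therefore in part set by the filter.

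Of the 5 tested genes of the OAS list, 4 rose. On binding double-stranded RNA, OAS proteins make 2′-5′ oligoadenylate, a second messenger. OAS1, OAS2, and OAS3 rose 7.9-fold, 9.12-fold, and 5.53-fold, with OAS2 at 5.69, 5.87, and 7.29 CPM in CTRL and at 41.9, 51.1, and 79.3 CPM in ADAR+hnRNPC libraries. OASL, a relative without synthase activity, rose 36.6-fold, from 0.394 ± 0.123 to 14.4 ± 6.19 CPM (SD, n = 3).

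Of the 10 tested double-stranded RNA sensors and adaptors, 5 rose and 0 fell, and their median log2 fold change was 0.92. IFIH1 went from 20.6, 21.7, and 22.8 CPM to 43.3, 46.3, and 61.1 CPM, a 2.31-fold rise. RIGI, which encodes RIG-I, and DHX58, which encodes their regulator LGP2, rose 2.37-fold and 2.33-fold. EIF2AK2, which encodes the translation-blocking kinase PKR, was at 64.6, 73.7, and 70.7 CPM and at 110, 152, and 167 CPM (2.05-fold). NLRP1, an inflammasome sensor, rose 7.26-fold from 0.387 CPM. MAVS, TBK1, and TRIM25 had log2 fold changes of -0.02, 0.14, and 0.03. Without ADAR+hnRNPC replicate 3 the number of sensors called was 3, since RIGI (0.98) and EIF2AK2 (0.91) then lay below a log2 fold change of 1. EIF2AK2 did so too without ADAR+hnRNPC replicate 2 or CTRL replicate 1 (0.99 each).

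The receptors and kinases of IFN signaling were not called, whereas parts of its feedback and output rose. Of the 11 tested genes of that list only USP18 and IRF9 were called. USP18, which removes ISG15 from proteins and blocks the IFN receptor, rose from 3.57 ± 0.473 to 12.2 ± 4.23 CPM (SD, n = 3). IRF9, the DNA-binding part of ISGF3, was 2.21, 1.47, and 1.3 CPM in CTRL and 8.41, 4.79, and 6.4 CPM in ADAR+hnRNPC libraries. STAT2 had a log2 fold change of 0.43, and IFNAR1, IFNAR2, JAK1, and TYK2 lay between -0.08 and 0.18. Among 6 other IRF genes, IRF7 rose 4.33-fold and IRF1 2.06-fold, while IRF8 had a log2 fold change of -0.69. The IRF1 value was 0.99, just short of the threshold, without CTRL replicate 3 and with GFP gRNA libraries as the control.

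Among 33 tested antiviral effectors, 14 rose and 0 fell (median log2 fold change 0.73). MX1, a GTPase that blocks viral nucleocapsids, had 4.71, 4.81, and 4.47 CPM in CTRL and 55.0, 62.3, and 108 CPM in ADAR+hnRNPC cells. The CTRL libraries lay within 1 CPM of each other, and the change was 16.1-fold. IFI44L and IFI44 rose 40.2-fold and 29.5-fold, TRIM22 and IFI27 15.7-fold each, EPSTI1 11.4-fold, and XAF1 3.16-fold. IFITM2 (log2 fold change -0.73), SAMHD1 (-0.59), and BST2 (-0.10) were not called. ISG15, a ubiquitin-like modifier, and HERC6 were the 2 of 5 tested genes of ISG15 conjugation that rose, with ISG15 at 8.24 ± 1.04 and 31.9 ± 11.6 CPM (SD, n = 3). GBP1, GBP2, and GBP5, 3 of the 5 tested guanylate-binding protein genes, were higher by 2.56, 3.89, and 1.20 on the log2 scale. PARP9, SP110, and PARP14 were the 3 of 9 tested genes that rose in the list of ADP-ribosyltransferases and nuclear body genes, of which PARP14 (1.02) was 0.90 without ADAR+hnRNPC replicate 3 and 0.97 without CTRL replicate 1.

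The promoters of these genes were searched for letters of the elements that ISGF3, NF-κB, and ATF4 bind, and stretches are shown because the genes moved together. RefSeq promoter sequences (GRCh38, 250 bases before to 50 bases after the first listed start of each gene) were found for 44 of the 61 named genes that rose. Searched on both strands were GAAA, 2 free bases, and GAAA, the core of the IFN-stimulated response element (ISRE), GGGA, 2 free bases, and TTCC, a form of the κB site, and TTGC followed directly by ATCA, a form of the ATF4 element. Only some of the 44 promoters held any of these letters, and the windows shown are a selection of the matches. None of the 3 forms was in the 10 promoters of the immediate early list. Of the 19 promoters of the growth arrest list, 1 held the ISRE letters and 0 the others. Windows of 30 bases are given 5′ to 3′ on the strand of the gene, with the matched letters in capitals, and were placed on GRCh37 by exact match of the whole promoter.
CXCL10 ISRE (chr4:76944852-76944881, minus strand): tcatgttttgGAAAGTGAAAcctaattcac
IFI44L ISRE (chr1:79085959-79085988, plus strand): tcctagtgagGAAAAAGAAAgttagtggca
IFIT1 ISRE (chr10:91152254-91152283, plus strand): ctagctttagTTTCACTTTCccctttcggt
IFI27 ISRE (chr14:94576964-94576993, plus strand): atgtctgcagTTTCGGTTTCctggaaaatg
OAS3 ISRE (chr12:113376126-113376155, plus strand): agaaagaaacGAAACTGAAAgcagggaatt
ISG15 ISRE (chr1:948754-948783, plus strand): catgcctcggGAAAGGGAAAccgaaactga
CXCL11 κB (chr4:76957280-76957309, minus strand): gactcaaagaGGGAAATTCCtgtgccataa
CXCL10 κB (chr4:76944808-76944837, minus strand): gaggagcagaGGGAAATTCCgtaacttgga
TNFAIP3 κB (chr6:138188319-138188348, plus strand): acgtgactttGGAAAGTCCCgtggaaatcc
The ISRE letters were in 3 of 3 promoters of the IFIT family, 16 of 24 (66.7%) of the antiviral effectors, 3 of 3 of the GBP family, and 0 of 11 of the NF-κB list, and in 3.65% of 27305 promoters of all genes. The κB letters were in 3 of 11 promoters (27.3%) of the NF-κB list and in 1.63% of all promoters. They were also in 3 of 7 (42.9%) of the double-stranded RNA sensor list, 2 of 3 of the chemokines, and 2 of 8 of the HLA class I list, and so were not limited to the NF-κB list. The ISRE letters were in 0 of 8 promoters of the IFN receptor list and 0 of 3 of the other IRFs. The ATF4 element letters were in 2 of 16 promoters (12.5%) of the integrated stress response list and in 0.923% of all promoters. The ISRE and κB letters printed for CXCL10 do not overlap. A match is a description of these letters in the window and not a measured binding site. The ISRE letters were also in 5 of 8 promoters of the HLA class I list, of which 1 gene was called higher.

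Of 14 tested NF-κB feedback and inflammatory genes, 9 rose and 0 fell (median log2 fold change 1.4). ICAM1 was 0.708, 1.13, and 0.334 CPM in CTRL and 11.2, 10.3, and 11.3 CPM in ADAR+hnRNPC libraries. The 3 ADAR+hnRNPC libraries were close to each other, and all lay above the CTRL libraries. TNFAIP3, which encodes the NF-κB inhibitor A20, rose from 11.3, 9.31, and 10.3 CPM to 52.2, 47.6, and 49.4 CPM. BIRC3, an inhibitor of apoptosis, rose 6.23-fold, and the NF-κB subunit gene NFKB2 and the IκB gene NFKBIE rose 2.84-fold and 2.46-fold. CD40, a receptor that activates NF-κB, rose from 5.02 ± 0.877 to 14.9 ± 2.17 CPM (SD, n = 3). TNF and IL6 lay below the filter. In the list of HLA class I presentation genes, the peptidase gene ERAP2 alone was called of 10 tested (2.92-fold), and B2M and TAP1 had log2 fold changes of -0.34 and 0.28.

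Genes of the integrated stress response rose in the same comparison. This response follows phosphorylation of eIF2α, among others by PKR, and its main factor ATF4 induces genes of amino acid supply and of stress signaling. Of 19 tested genes 11 rose and 0 fell (median log2 fold change 1.41). INHBE, an activin subunit gene, was 0.828, 0.776, and 1.53 CPM in CTRL and 13.9, 13.7, and 16.4 CPM in ADAR+hnRNPC libraries. TRIB3, a pseudokinase gene induced by ATF4, had 43.0, 45.5, and 53.4 CPM and 161, 167, and 194 CPM. For both genes the groups lay far apart. The transcription factor genes ATF3, DDIT3, and ATF5 rose 6.2-fold, 3.11-fold, and 2.66-fold, and SESN2, an inhibitor of mTORC1 signaling, 4.02-fold. ATF4 mRNA itself had a log2 fold change of 0.40 and was not called.

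Of 24 tested growth arrest and p53 target genes, 8 rose and 0 fell (median log2 fold change 0.47). CDKN1A, which encodes the cell cycle inhibitor p21, was 30.5, 24.0, and 29.5 CPM in CTRL and 131, 126, and 157 CPM in ADAR+hnRNPC libraries. FAS, a death receptor gene, rose 3.98-fold, SPATA18 7.99-fold, BTG2 3.43-fold, GADD45A 3.3-fold, and PHLDA3 3.03-fold. MDM2, CCNG1, and BAX, which p53 also regulates, had log2 fold changes of 0.41, 0.24, and -0.17. Of 13 tested immediate early factors 4 rose, among them ATF3 as above, JUN (2.74-fold), FOSB (7.24-fold), and EGR1 (2.89-fold), while MYC had a log2 fold change of -0.96.

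In edgeR's test, with no limit on fold, 3362 of 13187 genes were higher and 4161 lower at an adjusted p of at most 0.05. Of 29 hnRNP and 3′ splice site factors, a list without the targeted HNRNPC, 0 were called. Without a limit on fold 19 of the 29 were lower and 2 higher, and the lowest log2 fold change was -0.70. HNRNPU, the most abundant of them, had 1640 ± 60.6 CPM in CTRL and 1136 ± 21.4 CPM in ADAR+hnRNPC cells (SD, n = 3), and HNRNPK had a log2 fold change of -0.45. Of 13 SR protein genes, which promote exon inclusion, 0 were called and 8 were lower and 1 higher without a limit on fold, with SRSF1 at 545 ± 5.72 and 342 ± 4.95 CPM. Of 17 nonsense-mediated decay factors 0 were called, with 5 higher and 3 lower without a limit on fold. SMG5 had a log2 fold change of 0.31 and UPF1 one of 0.00, whose sign changed between the alternatives tried. Of 39 genes of DNA replication and mitosis 0 were called, 19 were lower and 6 higher without a limit on fold, and TOP2A and CDK6 had log2 fold changes of -0.44 and -0.46. None of 15 mitochondrially encoded genes was called, with or without a limit on fold, and MT-CO1 and MT-CO3 had values of -0.01 and -0.19 with SEs of 0.29 and 0.28. Among the monocytic markers, ITGAM, which encodes the integrin CD11b, was the only one called of 10 tested, at 14.9 ± 0.826 and 38.4 ± 2.44 CPM (SD, n = 3). Of the 2 tested markers of other cells 0 were called, and NKG7, a cytotoxic lymphocyte gene, had a log2 fold change of -0.16.

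The 170 genes that fell had a median log2 fold change of -1.14, and 2 of them fell more than 4-fold. MNDA, a myeloid nuclear protein gene, was 143, 174, and 185 CPM in CTRL and 30.2, 38.6, and 41.4 CPM in ADAR+hnRNPC cells, and fell by 2.19 on the log2 scale (SE 0.14). CAV1, which encodes the caveolar protein caveolin-1, fell by 2.08, and PRMT3, a ribosomal protein methyltransferase gene, by 1.95. IARS2, the mitochondrial isoleucyl-tRNA synthetase gene, was 404, 426, and 428 CPM in CTRL and 106, 120, and 118 CPM in ADAR+hnRNPC cells. CAB39L, SLC16A10, HK2-DT, FERMT1, and GLDC fell by 1.90, 1.89, 1.78, 1.76, and 1.73. TBC1D30 was called as well (log2 fold change -1.87, adjusted p = 0.022), but it had 15.4, 1.76, and 2.18 CPM in CTRL and 1.36, 1.92, and 1.96 CPM in ADAR+hnRNPC libraries. Its groups overlapped, and the call rested on CTRL replicate 1. The value was -0.18 without that library, -0.04 with GFP gRNA libraries as the control, and -1.72 without ADAR+hnRNPC replicate 1 (adjusted p = 0.075). Of 14 genes on a list of splicing and editing cluster examples, NUCKS1, MFSD1, IARS2, and EIF3D fell and RCN3 rose. That list had been chosen on these samples and is not independent evidence.

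The falls were also measured in cells with the hnRNPC gRNA alone. In the same model and against the same CTRL libraries, MNDA had a log2 fold change of -2.18 with hnRNPC alone and of -0.01 with ADAR alone, IARS2 of -1.73 and -0.12, and CAV1 of -1.61 and -0.23. PRMT3 had -2.44 and -0.08. In the direct comparison with hnRNPC alone, PRMT3 was higher by 0.48 (SE 0.08, adjusted p = 1.7e-05) and CAV1 differed by -0.47 (SE 0.17, adjusted p = 0.029), whereas MNDA differed by -0.01 (SE 0.14). The median of the 170 genes was -1.17 with hnRNPC alone and -0.05 with ADAR alone, and that of the 448 genes that rose was 0.81 and 0.25, beside 1.38 with both gRNAs. These comparisons share the CTRL libraries, and the genes were chosen by the first of them.

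The direct comparison of ADAR+hnRNPC with hnRNPC alone used no CTRL library. Here 158 genes (1.2%) were higher. None (0%) was lower by edgeR, DESeq2, or limma-voom, although 2713 were lower at an unadjusted p under 0.05, of which 1 had a fold of at least 2, and 2026 passed the adjusted threshold without a limit on fold. Of the 158 genes, 56 were in a gene list and 102 in none. The list members called higher included 4 of 4 IFIT genes, 4 of 5 of the OAS list, 14 of 33 antiviral effectors, 7 of 14 NF-κB genes, and 8 of 19 genes of the integrated stress response, against 1 of 24 growth arrest and p53 target genes. The filter had a part in these counts too, since some members passed it only through groups with higher levels. IFIT1 was higher by 5.35 on the log2 scale (SE 0.33), MX1 by 3.70 (SE 0.19), BIRC3 by 2.41 (SE 0.15), and TRIB3 by 1.69 (SE 0.20). CDKN1A differed by 0.28 (SE 0.19, adjusted p = 0.29) and FAS by 0.15 (SE 0.13, adjusted p = 0.45). PARP9 (1.15), NFKB2 (1.04), and ATF3 (1.1) were called against hnRNPC alone but lay at 0.95, 0.98, and 0.90 without ADAR+hnRNPC replicate 3, and NFKB2 at 0.97 without hnRNPC replicate 2. ITGAM (1.01) lay at 0.97 without ADAR+hnRNPC replicate 1 and at 0.94 without hnRNPC replicate 2.

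Whether both gRNAs together gave more than the sum of their single changes on the log2 scale was tested as an interaction in the 12 libraries of the 4 gRNA groups. At an adjusted p of at most 0.05, 422 genes (3.2%) had a positive and 189 (1.43%) a negative interaction. With the replicate number as a block the counts were 1379 and 1866, with voomWithQualityWeights 1099 and 1195, and with DESeq2 943 and 774, so the number of calls and the balance of signs depended on the model. MX1 had an interaction of 3.01 (SE 0.28, adjusted p = 0.00033): its log2 fold change was 0.31 with hnRNPC alone, 0.69 with ADAR alone, and 4.01 with both. IFIT1 had one of 4.29 (SE 0.53), with single changes of -0.02 and 1.04. For ICAM1 it was 3.34 (SE 0.42), for BIRC3 1.85 (SE 0.18), and for TRIB3 1.36 (SE 0.18). The interaction was positive for 4 of 4 IFIT genes, 4 of 5 of the OAS list, 11 of 33 antiviral effectors, 8 of 14 NF-κB genes, and 10 of 19 integrated stress response genes. These counts are in part set by the filter as well. Some of the 12 largest rises were also called higher with a single targeting gRNA. With hnRNPC alone these were IFIT2, OASL, TRIM22, and IFI27, with log2 fold changes of 1.06 (OASL) to 1.92 (IFIT2). With ADAR alone they were CXCL11, CXCL10, IFIT2, OASL, TRIM22, and ADAM28, with TRIM22 at 1.09 and ADAM28 at 1.58. IFI44L, IFIT1, IFI44, MX1, and ICAM1 were called with neither gRNA alone.

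Of the 24 growth arrest and p53 target genes, 4 had a positive interaction: GADD45A (0.81), BBC3 (1.05), DDB2 (0.37), and AEN (0.35). Other rises had no detectable interaction. CDKN1A had log2 fold changes of 2.02 with hnRNPC alone, 0.43 with ADAR alone, and 2.30 with both, and an interaction of -0.14 (SE 0.17, adjusted p = 0.67). The values for FAS were 1.85, 0.24, and 1.99 (interaction -0.09, SE 0.21) and for CD40 1.19, 0.30, and 1.57 (interaction 0.07, SE 0.18). CXCL11 and CXCL10 were called higher with ADAR alone too, at 0.204, 0.232, and 0.131 CPM for CXCL11 and 0.248, 0.619, and 0.238 CPM for CXCL10. Their interactions (adjusted p = 0.80 and 0.21) did not pass, with few or no counts in the CTRL libraries. IFNB1 was not in this test. Of the genes that fell, MNDA had an interaction of 0.00 (SE 0.20), and PRMT3 one of 0.56 (SE 0.12, adjusted p = 0.0195), which was not called without hnRNPC replicate 2 (adjusted p = 0.060). SRSF1 and TBK1 had negative interactions, of -0.36 (SE 0.07, adjusted p = 0.0146) and -0.32 (adjusted p = 0.0388). The number of interactions called depended on single libraries and ranged, with 1 library left out, from 206 (without ADAR replicate 3) to 584 (without ADAR replicate 1) for positive and from 38 to 593 for negative ones (the same 2 libraries).

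Introns of protein-coding genes were counted by the authors apart from exons. Of 21798 introns tested, 778 (3.57%) were higher and 155 (0.711%) lower in ADAR+hnRNPC than in CTRL cells. To separate an intron from its gene, the log2 ratio of intron to host gene CPM, each with 0.5 CPM added, was tested with limma in 19441 introns that lie in 1 tested gene. Relative to the host gene 689 introns (3.54%) in 564 genes were higher and 49 (0.252%) in 30 genes were lower. Of the 689, the intron itself was called higher in 402. The host gene was called lower for 81 and higher for 1, and a lower host gene raises this ratio by construction. Of the 564 genes, 474 had 1 such intron, and TPP2 had 6 and NCKAP1L and RNGTT 5 each.

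The introns with the largest rise relative to the host gene are shown by their longest run of thymines on the sense strand, the DNA form of the uridine runs that hnRNPC binds. Each window of 30 bases (GRCh37, strand of the gene) has the run in capitals.
ACTR3 (chr2:114686272-114686301, plus strand): tccaataaaTTTTTTTTTTTTaccaaaaca
GMPS (chr3:155622075-155622104, plus strand): ttctttttcTTTTTTTTTTTTcgagacgga
NUP133 (chr1:229601633-229601662, minus strand): cttttcTTTTTTTTTTTTTTTTTgtgagac
IARS2 (chr1:220285463-220285492, plus strand): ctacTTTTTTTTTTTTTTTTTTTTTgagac
KDM3B (chr5:137709110-137709139, plus strand): acctttaaagTTTTTTTTTcaattatggag
POLD3 (chr11:74306208-74306237, plus strand): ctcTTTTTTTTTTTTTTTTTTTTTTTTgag
SNRNP40 (chr1:31733704-31733733, minus strand): agatacTTTTTTTTTTTTTTTTTgagacag
PXMP2 (chr12:133267632-133267661, plus strand): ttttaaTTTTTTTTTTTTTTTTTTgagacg
The longest runs were 9 (KDM3B) to 24 (POLD3) thymines, and began 334 (GMPS) to 1248 bases (ACTR3) from the 5′ splice site.

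The intron of ACTR3 (chr2:114685034-114688877), the gene of the actin nucleation subunit ARP3, had 2.59, 2.14, and 2.11 CPM in CTRL and 54.7, 33.5, and 34.2 CPM in ADAR+hnRNPC libraries. Its host gene went the other way, from 715, 787, and 783 CPM to 403, 437, and 424 CPM. The ratio was higher by 4.71 on the log2 scale (SE 0.25, adjusted p = 2.9e-17). In GMPS, the GMP synthetase gene, an intron (chr3:155621751-155623948) had 1.51, 1.54, and 1.11 CPM in CTRL and 21.3, 16.0, and 17.5 CPM in ADAR+hnRNPC libraries. The groups did not overlap, and the ratio was higher by 4.23. In SNRNP40, a spliceosome subunit gene, the intron (chr1:31732970-31734375) had 2.02, 1.90, and 1.88 CPM and 22, 23.3, and 21 CPM, while the gene had a log2 fold change of -0.07. The ratios for introns of NUP133 (nuclear pore), IARS2, KDM3B (a histone demethylase), POLD3 (DNA polymerase delta), and PXMP2 (peroxisomal membrane) were higher by 3.98, 3.58, 3.32, 3.29, and 3.12. The host genes NUP133 and IARS2 were themselves called lower (-1.13 and -1.87).

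The introns that rose relative to the host gene were higher to a like extent without the ADAR gRNA in their own level, not divided by the host gene. The 689 introns had a median log2 fold change of 1.14 in ADAR+hnRNPC, of 1.13 with hnRNPC alone, and of -0.13 with ADAR alone against the same CTRL libraries, and of -0.09 in ADAR+hnRNPC against hnRNPC alone. For the ACTR3 intron the values were 4.16, 4.32, 0.09, and -0.16. Against hnRNPC alone 62 introns (0.284%) were higher. None (0%) was lower by edgeR or limma-voom and 1 by DESeq2, with 2315 lower at an unadjusted p under 0.05, of which 1 had a fold of at least 2, and 280 below the adjusted threshold without a limit on fold. Of the 62, 56 lay in 1 tested gene, and for 35 of these the gene was called higher in the same comparison. With ADAR alone against CTRL 0 introns were called by edgeR, with 206 higher and 1254 lower at an unadjusted p under 0.05.

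Introns in the genes that rose were seldom among those higher relative to the host, a ratio that a higher host gene lowers by construction. The only such gene was ABCC6, a transporter gene, whose intron (chr16:16276789-16278815) had 0.819, 0.452, and 0.541 CPM in CTRL and 6.54, 3.96, and 4.68 CPM in ADAR+hnRNPC cells. Its ratio was higher by 1.16 with an offset of 0.5 CPM and by 0.30 with one of 2 CPM. Among the largest falls in ratio were introns of IFI44L (-2.68), MX1 (-2.32), and IFI44 (-2.15), although the introns themselves rose by 5.15, 4.01, and 4.80 on the log2 scale, with 0 to 0.128 CPM in CTRL. The 0.5 CPM added to each level is larger than these CTRL values and shrinks the rise of the intron in the ratio by construction. With the host gene as an offset in edgeR, which adds no such 0.5 CPM, the 3 ratio differences were 0.02, 0.05, and 0.06. The intron of CHAMP1, a chromosome segregation gene, had a ratio lower by 2.03. That intron itself was not called (log2 fold change -0.61), and its host gene was called higher (1.81). Of 74 genes that fell and had a tested intron, 40 (54.1%) had 1 higher relative to the host, against 523 of 6500 genes that were not called (8.05%) and 1 of 86 that rose (1.16%). A lower host gene raises the ratio and a higher one lowers it by construction, so the grouping of the genes in part sets these shares. An intron that itself was higher was found in 9 (12.2%) of the genes that fell, 529 (8.14%) of those not called, and 54 (62.8%) of those that rose.

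A run of at least 9 thymines on the sense strand was in 92.3% of the 689 introns and in 65.6% of 18700 introns with sequence that were not called relative to the host. Runs are more likely in long introns, and the median lengths were 6439 and 4497 bases. Within introns of up to 1846 bases the shares were 72.4 and 18.9%, in those of 1847 to 4552 bases 88.2 and 60.9%, in those of 4553 to 12032 bases 96.0 and 85.4%, and in longer ones 99.5 and 98.8%. In the shortest class the median lengths still differed (1489 and 887.5 bases), as did the median GC shares (41.1 and 47.6%). In the next class they were 2999 and 2980 bases and 41.0 and 42.3%. The part of length and base composition was not tested. Runs of at least 9 adenines, which mark the other orientation, were in 19.7 and 13.8%, 34.9 and 48.1%, 78.0 and 77.8%, and 98.2 and 97.2% of these classes. The 2 orientations thus differed most in the introns under 4553 bases. An editing-cluster-rich region (an editing cluster with 1000 bases on each side) overlapped 15.4% of the 689 introns and 7.48% of those not called. The shares were 6.58 and 5.19% in the shortest class and 13.8 and 3.97% in the longest. The authors sought editing clusters in all samples and kept sites with at least 10 reads in each library of at least 1 treatment. Introns with more reads in a group can pass this minimum more easily, and its part in the overlap was not tested.

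Editing was also read at sites inside the 778 introns that rose. The introns were chosen by their reads in this comparison, so the higher read number in ADAR+hnRNPC libraries is a description. At 2250 such sites the reads numbered 50773 to 67268 in CTRL and 132394 to 176420 in ADAR+hnRNPC libraries. The edited share was 3.99, 4.20, and 4.21% in CTRL and 1.93, 1.80, and 1.87% in ADAR+hnRNPC libraries, means of 4.13 ± 0.123% and 1.87 ± 0.0622% (SD, n = 3, exact permutation p = 0.1, the smallest possible). With hnRNPC alone it was 4.88 ± 0.216% over 135746 to 158435 reads, and with ADAR alone 1.60 ± 0.0515% over 41914 to 62220 reads. At 67476 sites inside the other introns tested the edited shares were 4.24 ± 0.222% in CTRL and 2.02 ± 0.1% in ADAR+hnRNPC cells. All these sites had at least 10 reads in each of the 6 libraries. With a minimum of 1 read there were 12375 sites inside the introns that rose, with 4.21 ± 0.17% and 2.38 ± 0.00651% edited (SD, n = 3). The ratio of ADAR+hnRNPC to CTRL was then 0.565 in place of 0.452, and 0.518 in place of 0.477 in the other introns.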

How the data were processed

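RNA was extracted from whole cells, depleted of ribosomal RNA, and sequenced from stranded libraries. All deposited values are counts. According to the paper's methods and the processing notes, the authors aligned reads to GRCh37 with STAR 2.5.4a, kept uniquely mapped reads, and deposited counts over GENCODE exons per gene, over introns (APPRIS genes without their exons), and edited and total read counts at A-to-I sites, with no normalization and no pooling. The strand setting of the counting is not given in the sources used here, so reads of overlapping genes may be shared.

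Groups were taken from the labels. Genes and introns with an average log2 CPM of at least 0.5 and 1 over the 48 whole-cell libraries of study 1 were fitted with edgeR 4.0.16 (R 4.3.3; TMM, glmQLFit, 1 coefficient per group), and the interaction in the 12 libraries of day 4. Intron to host ratios were fitted with limma 3.58.1. P-values were adjusted by Benjamini-Hochberg over all features tested, and the scripts were tested on simulated data. CPM are counts per 1000000 TMM-scaled gene counts. Alternatives were a GFP gRNA control, a replicate block, other scalings, no filter, limma-voom, DESeq2 1.42.0, and leaving out each library; leaving out replicate 1 of every group was added after the data were seen. Deviations of same-numbered libraries correlated at 0.42 to 0.55 between CTRL and ADAR+hnRNPC and at 0.12 to 0.45 between hnRNPC alone and ADAR+hnRNPC. Between hnRNPC alone and ADAR alone they correlated at -0.06 to 0.40. The numbers may thus mark shared experiments, which the labels do not state, and the main fits did not pair the libraries by number. No 2 libraries of a group differed by as little as counting noise. Alu annotation was not used here. In 4 tested introns of length 0 no sequence was read.

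Named genes were both targets, the 12 largest rises and 10 largest falls (mean of at least 1 CPM in the higher group), up to 6 called members per list by adjusted p, and the 2 most abundant members where none was called; named introns were the 8 largest rises and 4 largest falls relative to the host gene, and rises whose host gene was called higher. IFNB1, BBC3, DDB2, AEN, TPP2, NCKAP1L, RNGTT, other list members given by their log2 fold change, and the printed windows were chosen after their values were seen. The comparison, the members, and the 24 gene lists were chosen with earlier results of these data known. Some list members are not reported here.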

Additional observations from a re-analysis of the deposited data

Results flagged for a closer look

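The change with both gRNAs differed from the sum of the single changes, by the interaction test in the 12 libraries of day 4, in 422 genes with a positive and 189 with a negative value. With the replicate block these counts were 1379 and 1866, so more negative than positive. No explanation was weighed. Values are interactions on the log2 scale.

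Among antiviral genes, the interaction was 4.43 for IFI44L, 4.29 for IFIT1, 3.44 for IFI44, 3.01 for MX1, 2.67 for OASL, 2.63 for EPSTI1, 2.28 for IFIT3, 1.84 for IFIT2, 1.35 for IFIT5, 1.35 for TRIM22, and 1.18 for XAF1. It was 2.22, 1.93, and 2.17 for OAS2, OAS1, and OAS3, and 2.09, 1.84, and 1.09 for ISG15, USP18, and HERC6. The sensors IFIH1, RIGI, and DHX58 had 0.94, 1.4, and 1.13, the factors IRF7 and IRF1 2.03 and 0.54, and PARP9 and PARP14 0.97 and 0.76.

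Among NF-κB and inflammatory genes it was 3.34 for ICAM1, 1.85 for BIRC3, 1.74 for TNFAIP3, 1.36 for CXCL8, 1.24 for NFKBIE, and 0.78 for NFKB2. Integrated stress response genes had 1.66 (INHBE), 1.36 (TRIB3), and 0.96 (SESN2), and the growth arrest gene GADD45A 0.81. The values were 1.74 for ADAM28, 1.07 for ERAP2, 0.72 for ITGAM, 0.56 for PRMT3, and -0.36 for SRSF1.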

How the results depend on the processing

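Without the low-count filter 1782 genes were higher and 370 lower, and 3681 introns higher and 1150 lower. With library totals 98 genes and 102 introns were lower. Leaving out 1 library at a time gave 423 to 499 genes higher and 141 to 190 lower, 633 to 1010 introns higher and 126 to 270 lower (270 without ADAR+hnRNPC replicate 1), and 512 to 863 introns higher and 47 to 99 lower relative to the host (99 without ADAR+hnRNPC replicate 1 and 75 without CTRL replicate 3). Against hnRNPC alone it gave 139 to 184 genes and 48 to 68 introns higher, and 0 to 1 genes and 0 to 2 introns lower. HNRNPC ranged from -1.36 to -1.26, ADAR from 0.13 to 0.23 (0.29 with library totals), and the editing difference from -2.55 to -2.40 points.

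The interaction counts were the least stable. Positive ones ranged from 206 to 584, with 215 without ADAR+hnRNPC replicate 3, 259 without CTRL replicate 1, 226 without hnRNPC replicate 2, and 240 and 206 without ADAR replicates 2 and 3. Negative ones ranged from 38 to 593, with 60, 121, and 73 without ADAR+hnRNPC replicates 1, 2, and 3, 68, 94, and 113 without CTRL replicates 1, 2, and 3, 40 without hnRNPC replicate 2, and 593, 39, and 38 without ADAR replicates 1, 2, and 3. DESeq2 gave 943 and 774, voomWithQualityWeights 1099 and 1195, all 48 libraries 846 negative, and leaving out replicate 1 of every group, added after seeing the data, 684 negative. With the replicate block they were 1379 and 1866, although for hnRNPC against ADAR the lowest same-number correlation was -0.06. The block gave 1 gene and 1 intron lower against hnRNPC alone, DESeq2 1 intron, and the block moved no other count by over 1.5 times.

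UPF1 was positive with GFP gRNA (0.11), the block (0.00017), library totals (0.12), limma-voom (0.0016), DESeq2 (0.036), and without replicate 1 of every group (0.041), and ranged from -0.033 to 0.048 with 1 library left out. MT-CO1 was positive with the block (0.0086), library totals (0.11), limma-voom (0.0045), DESeq2 (0.024), and without replicate 1 of every group (0.11), and ranged from -0.14 to 0.21, and MT-CO3 from -0.33 to 0.027. With a host gene offset in edgeR the introns of IFI44L, MX1, and IFI44 had 0.018, 0.045, and 0.057. The cause of the changes in UPF1, MT-CO1, and MT-CO3 was not tested, nor was the part of the added 0.5 CPM in the intron values.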
